A study of Mus musculus with 8 samples.

Results

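The genes described here encode amino acid transporters and their relatives in 7 solute carrier families, Slc1, Slc3, Slc6, Slc7, Slc36, Slc38 and Slc43. They were chosen by gene symbol alone, as every row of the isoform table whose symbol is one of these family names followed by the letter a and a number. This gave 95 isoforms of 59 genes, out of 34535 isoforms of 24358 gene symbols. Slc6a20a and Slc6a20b, whose symbols end in a letter, fall outside the rule.

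Plasma membrane amino acid transporters set which amino acids a cell can take up, exchange or release. Slc7 light chains work only when bound to a heavy chain of the Slc3 family, which carries them to the cell surface. Other members sit in lysosomes, where amino acid levels are read by the growth-controlling kinase complex mTORC1. Not every member of these families carries amino acids that build proteins. Some Slc6 members carry neurotransmitters, taurine or creatine, and Slc43a3 is known as a transporter of purine nucleobases.

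The RNA came from adipocyte precursors, mesenchymal cells that can become fat cells, sorted by flow cytometry from the dermis of male C57/Bl6 mice aged 7 weeks. Nonwounded dorsal skin gave 6 samples and the wound bed, 5 days after wounding, gave 2, and no genetic change or drug is named for either group. The table holds 1 FPKM value (sequenced fragments normalised for transcript length and library size) per isoform and group, with no value per sample, so no SD or count of samples that share a direction can be given, and the depth of the samples is unknown. Whether the samples were separate animals is not stated in the labels, and the p-values may then measure technical spread only. The surface markers of the labelled cell type were well above 0 in both groups, with Pdgfra at 81.2 in the wound bed against 78.8 in nonwounded skin and Cd34 at 476 and 739, while 2 of the 8 precursor markers looked at, Dpp4 and Cd24a, were called lower. Markers of other cell types were also present, and the sum over 15 macrophage and monocyte genes was 1048 in the wound bed against 336, with none of them listed at 0 in either group. Summed neutrophil markers were also higher in the wound bed, at 108 against 3.36 (1 of 5 tested genes called higher), as were keratinocyte markers, at 33.0 against 18.6 (2 of 5). Lower in the wound bed were the sums of erythroid markers, at 193 against 3083 (4 of 5 called lower), and mast cell markers, at 6.24 against 59 (4 of 4). Skeletal muscle markers were lower too, at 6.93 against 78.0 (1 of 4). The endothelial sum was 26.3 against 94.2 (1 of 5 called lower, Lyve1), mostly through Tek at 18.4 against 83.1 without a call. Tie1 and Vwf were not tested. Kdr, Cdh5 and Pecam1 leaned higher in the wound bed without a call, and the endothelial median log2 fold change was 0.11. These counts leave out genes whose major isoform stayed under an FPKM of 1. Mature adipocyte markers are given with Slc7a10. The part of these cell types in the transporter values was not tested.

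The comparison asks which of these transporters differ between precursors of a day 5 wound bed and those of nonwounded skin. Slc38a2, Slc3a2, Slc7a8, Slc7a11, Slc6a6 and Slc6a8 were higher in the wound bed, by between 0.93 (Slc6a8) and 1.76 (Slc7a11) on the log2 scale. Slc1a5, Slc1a4, Slc43a3 and Slc38a9 were lower, with the glutamine carrier gene Slc1a5 at 75.9 against 215. An isoform was called when its Cuffdiff p, adjusted by Benjamini-Hochberg over all 17775 tested isoforms, was under 0.05.

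Of the 95 transporter isoforms, 42 were tested, in 31 genes. The other 53 were marked as not tested in the authors' deposited table, and none of them had an FPKM above 0.692 in either group. Among the 42, 6 isoforms (14.3%) rose, where 5.66% of all tested isoforms did, and 5 (11.9%) fell, where 7.25% of all did. Taking for each gene its major isoform, the one, among those tested, where both values add up to the most, 28 genes reached an FPKM of 1 or more in at least a single group. Calls higher were made for 6 of them (21.4%, against 7.39% of all 12961 such genes) and calls lower for 4 (14.3%, against 8.70%). Their median log2 fold change was -0.03, and that over the 12458 such genes with a value above 0 in both groups was -0.14. The calls thus went both ways with a median near 0. The shares stand beside the background as descriptions, since the genes are not replicates and no test of the list was made.

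**Figure D1:**
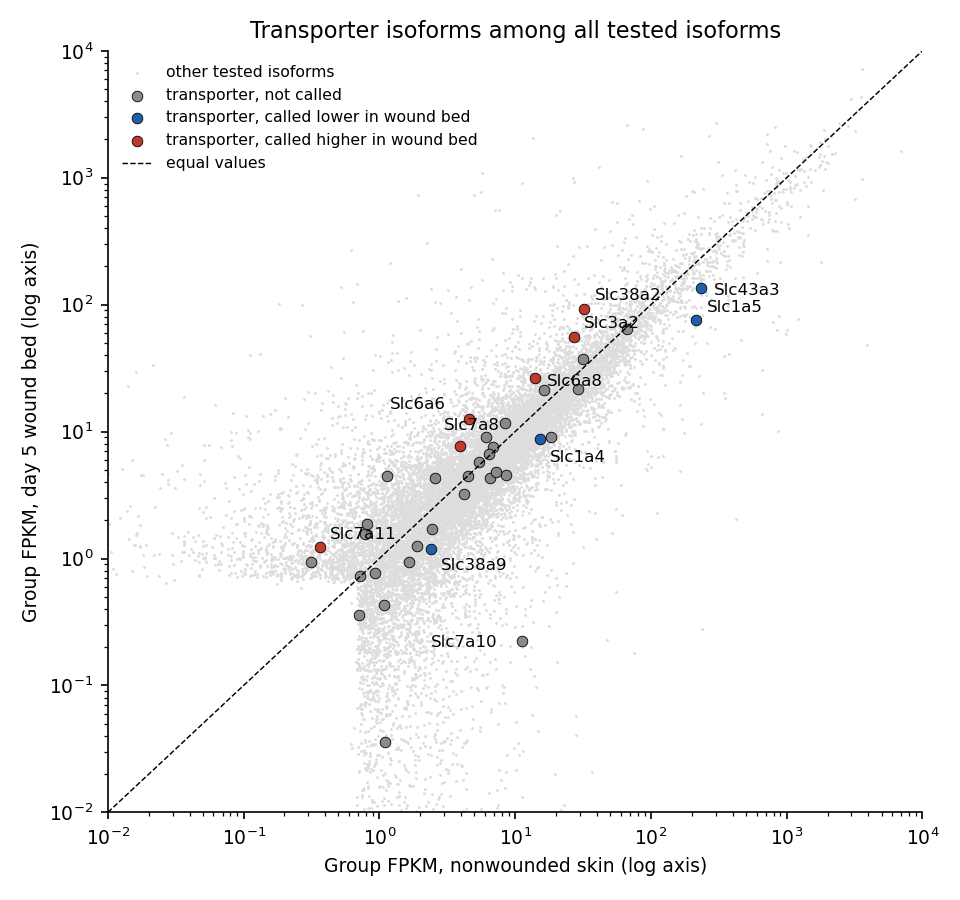
Each tested isoform is 1 point placed by its group FPKM, nonwounded skin on the horizontal and wound bed on the vertical axis, both log axes, with 39 transporter isoforms drawn large (red called higher, blue called lower, dark grey not called), all other tested isoforms in pale grey and a dashed line of equal values; isoforms under 0.01 in either group are not drawn. Slc38a2 (92.7 against 32.4) lies above the line and Slc1a5 (75.9 against 215) below it, while Slc7a10 (0.224 against 11.2) lies farthest below it among the labelled genes and was not called.

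Transporter transcripts were concentrated in a few genes. The FPKM summed over all 59 genes was 658 in the wound bed against 817 in nonwounded skin. The same 5 genes led in both groups, Slc43a3, Slc1a5, Slc38a10, Slc38a2 and Slc3a2, with 75.2% of the sum in nonwounded skin and 71.7% in the wound bed. Slc43a3 held first place in both. Slc1a5 stood at place 2 in nonwounded skin and at place 4 in the wound bed, and Slc38a2 at places 4 and 3. The Slc1 family made up 28.9% of the sum in nonwounded skin and 13.6% in the wound bed, while the Slc38 family made up 21.9% and 35.4%. These shares are ratios within each group and carry no test.

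**Figure D2:**
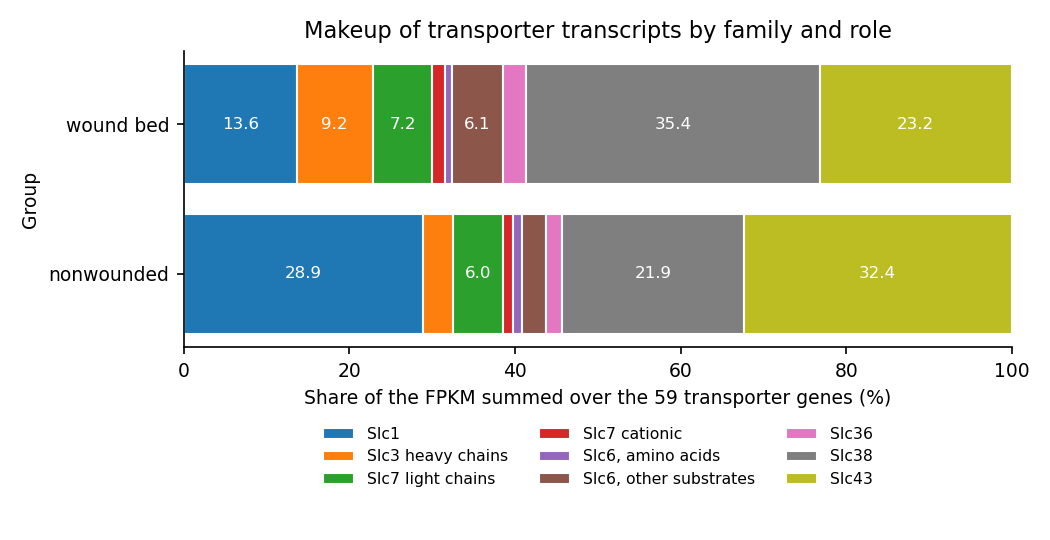
Share of the FPKM summed over the 59 transporter genes (horizontal axis, percent) held by each family or role, 1 bar per group, with shares above 5% printed in the bars. The Slc1 part is 13.6% in the wound bed against 28.9%, and the Slc38 part 35.4% against 21.9%.

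The promoters of the members were searched for the C/EBP-ATF element, the site through which the transcription factor ATF4 acts on genes of the amino acid response, written here as TGATGNAA and sought on both strands. The promoter windows, from RefSeq on GRCm38.p6, run from 250 bases before the start site to 50 after it. Of the members, 41 genes matched a window, 62 windows in all, and 4 windows of 3 genes held the element (6.45%), against 3.97% of all 32851 windows. Of the 11 called genes, 6 matched a window, and the element was found in Slc7a11, which rose, and Slc1a4, which fell. Both are shown from 100 bases before to 10 after the start site, in the direction of transcription, with the element in capitals, because they are called members of opposite direction. The Slc1a4 stretch is chr11:20332704-20332813 and the Slc7a11 stretch chr3:50443604-50443713, both on the minus strand.
Slc1a4: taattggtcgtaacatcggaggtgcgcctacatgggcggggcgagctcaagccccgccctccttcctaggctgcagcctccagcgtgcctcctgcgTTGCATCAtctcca
Slc7a11: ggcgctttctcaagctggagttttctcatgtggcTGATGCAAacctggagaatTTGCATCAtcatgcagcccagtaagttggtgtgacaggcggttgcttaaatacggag
In Slc7a11 the element occurs on each strand, beginning 66 and 47 bases before the start site. In Slc1a4 it occurs once, on the opposite strand, across the start site itself, from base -4 to base 4. The third gene was Slc7a7, which was not called and held 2 distinct sites; a pair of its windows overlap, so that 1 of these sites is counted in both. Counted by gene, 3 of 41 members (7.32%) held the element, against 4.51% of all 27025 genes with a window. The windows of Slc38a2, Slc3a2, Slc7a8 and Slc38a9 held no such letters, and Slc1a5, Slc6a6, Slc6a8 and Slc43a3 had no window. A match describes the letters only.

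The Slc1 family holds the glutamate carriers and the neutral amino acid exchangers. Slc1a5 encodes ASCT2, a sodium-dependent exchanger best known for carrying glutamine. It stood at 215 in nonwounded skin and 75.9 in the wound bed (log2 fold change -1.50, adjusted p of 0.000882), the largest fall among the transporters called with a value above 0 in both groups. Slc1a4 encodes ASCT1, an exchanger of alanine, serine, cysteine and threonine. It stood at 15.2 and 8.67 (log2 fold change -0.81, adjusted p of 0.0373). Slc1a3, the gene of a glutamate transporter, gave nearly equal values of 4.51 and 4.46. Of the 3 tested genes of this family 2 were called lower and none higher. Among all genes whose major isoform reached an FPKM of 1, 8.70% were called lower and 7.39% higher. The call of Slc1a4 did not hold at an adjusted p under 0.01. Slc1a1, Slc1a2, Slc1a6 and Slc1a7 were not tested, so no result about the family is drawn from this count. The Slc1a5 locus lies on chromosome 7 from 16781346 to 16798274 in the table.

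The heavy chain gene Slc3a2 encodes CD98hc (4F2hc), which brings its light chains to the plasma membrane and also binds integrins. Its main isoform stood at 56.0 in the wound bed against 27.0 in nonwounded skin (log2 fold change 1.06, adjusted p of 0.000882). A second isoform stood at 4.28 and 2.57 without a call. Slc3a1, the heavy chain gene of the kidney and gut cystine transporter, was at 0.0415 and 0.0419 and was not tested.

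The light chain genes did not move as a block. Slc7a8 encodes LAT2, an exchanger of small and large neutral amino acids. It stood at 7.66 in the wound bed against 3.94 in nonwounded skin (log2 fold change 0.96, adjusted p of 0.0357). Slc7a11 encodes xCT, which takes up cystine in exchange for glutamate and so feeds glutathione synthesis. It stood at 1.23 and 0.364 (log2 fold change 1.76, adjusted p of 0.0393), the largest rise of the called transporters although from a low level. With a pseudocount of 1 its log2 change was 0.71.

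Slc7a5, the gene of LAT1, which carries large neutral amino acids such as leucine, stood at 9.11 and 6.05 without a call (log2 fold change 0.59, adjusted p of 0.214). Slc7a6, a light chain gene of cationic and neutral amino acid exchange, was the most abundant of the 6 partners of Slc3a2, at 21.5 and 16.3 (0.40, adjusted p of 0.289). Slc7a7 encodes a close relative of the Slc7a6 product, and its major isoform stood at 4.57 in the wound bed against 8.52 in nonwounded skin (-0.90, adjusted p of 0.343). None of these 3 genes passed the test, and the table shows no spread that would say how close their groups lay.

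Slc7a10 encodes Asc-1, a carrier of small neutral amino acids known as a surface protein of white fat cells. It stood at 0.224 in the wound bed against 11.2 in nonwounded skin (log2 fold change -5.65, or -3.32 with a pseudocount of 1). In the authors' deposited table its unadjusted p was 0.0118, and after adjustment over all tested isoforms (0.0759) it was not called. The sum over 7 mature adipocyte markers moved in the same direction, from 134 in nonwounded skin to 8.21 in the wound bed, with 2 of 6 tested genes called lower and none listed at 0. Their part in the value of Slc7a10 was not tested. In bulk RNA, fewer cells of a type and less RNA per cell cannot be told apart.

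Set against each other per length, the heavy chain and its light chains stood in a different balance in each group. The summed isoforms of Slc3a2 gave 60.3 in the wound bed against 29.5 in nonwounded skin, and the 6 light chain genes together 46.9 and 49.1. The ratio of heavy to light chain FPKM was 1.29 in the wound bed against 0.601 in nonwounded skin. Without Slc7a10 it was 1.29 and 0.779, so that the ratio was higher in the wound bed with and without that gene. Within the light chains Slc7a6 held the largest share in both groups, 45.7% and 33.1%, while Slc7a10 held 22.9% in nonwounded skin and 0.478% in the wound bed. These ratios of group values have no replicate check.

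Among the cationic amino acid carriers, Slc7a1 encodes CAT1, the widely expressed carrier of arginine and lysine. Its major isoform stood at 5.77 in the wound bed against 5.41 in nonwounded skin without a call, and its isoforms summed to 6.72 and 7.08, so that the direction depended on which was taken. Slc7a2 encodes CAT2, an arginine carrier induced in activated macrophages. It stood at 1.87 and 0.811, a log2 fold change of 1.20 that was not called (adjusted p of 0.0918). The genes of 2 enzymes that use arginine had very unequal group values, Arg1 at 41.1 against 0.132 and Nos2 at 33.3 against 0.0216, neither of them called; these 3 genes were named after their values were seen. Of 14 tested macrophage and monocyte markers 10 were called higher in the wound bed and 0 lower, and their part in the values of Slc7a2, Arg1 and Nos2 was not tested.

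In the Slc6 family, the genes that rose were carriers of compounds other than the amino acids of proteins. Slc6a6 encodes the taurine transporter TauT, and taurine also serves as an osmolyte. It stood at 12.5 in the wound bed against 4.56 in nonwounded skin (log2 fold change 1.46, adjusted p of 0.000882). Slc6a8 encodes the creatine transporter. Its main isoform stood at 26.4 and 13.9 (log2 fold change 0.93, adjusted p of 0.00971), and the sum of its isoforms gave 0.77. Slc6a9, the gene of a glycine transporter, stood at 4.30 and 6.55 without a call (-0.61, adjusted p of 0.295).

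The proton-coupled carriers of the Slc36 family showed no call. Slc36a1, found on lysosomes and the plasma membrane, stood at 6.72 in the wound bed against 6.38 in nonwounded skin. Slc36a4, a proline and tryptophan carrier, stood at 11.6 and 8.41 (log2 fold change 0.46, adjusted p of 0.380).

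The Slc38 family of sodium-coupled neutral amino acid transporters held the most abundant of the called rises. Slc38a2 encodes SNAT2, which takes up glutamine, alanine and other small neutral amino acids and is known to increase when amino acids are scarce. It stood at 92.7 in the wound bed against 32.4 in nonwounded skin, a 2.86-fold difference (log2 1.52, adjusted p of 0.000882). Its locus lies on chromosome 15 from 96687392 to 96699698 in the table. Slc38a2 and Slc1a5, both carriers of neutral amino acids including glutamine, thus lay on opposite sides: Slc1a5 was the higher of the pair in nonwounded skin and Slc38a2 in the wound bed.

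Slc38a9 encodes a lysosomal protein that reports arginine to mTORC1. It stood at 1.18 in the wound bed against 2.38 in nonwounded skin (log2 fold change -1.01, or -0.63 with a pseudocount of 1, adjusted p of 0.0408). Slc38a7, a lysosomal glutamine carrier gene, stood at 4.83 and 7.17 without a call (-0.57, adjusted p of 0.288). Slc38a4, an imprinted gene of a neutral and cationic amino acid carrier, stood at 21.6 and 28.9 (-0.42, adjusted p of 0.253). Slc38a10, the third most abundant member in nonwounded skin, gave 109 and 102 as the sum of its isoforms, and no isoform of it was called.

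The Slc43 family includes 2 carriers of large neutral amino acids. Slc43a3, the nucleobase carrier gene, was the most abundant member in both groups, at 134 in the wound bed against 235 in nonwounded skin (log2 fold change -0.81, adjusted p of 0.0431). Slc43a1 encodes LAT3, and its major isoform stood at 9.0 and 18.3 without a call (-1.03, adjusted p of 0.273). Slc43a2, the gene of LAT4, stood at 1.55 and 0.778 (1.0, adjusted p of 0.201). With the Slc6 family and Slc43a3 set aside, the called genes that remained were Slc38a2, Slc3a2, Slc7a8 and Slc7a11, higher, and Slc1a5, Slc1a4 and Slc38a9, lower. The Slc6 family also holds 8 genes listed as amino acid carriers, of which only 2 were tested, with 0 calls in either direction. The untested genes could not have been called, so no result is read from this count. The subset without the Slc6 family and Slc43a3 was chosen after the calls were known, so it is a listing and carries no share.

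**Figure D3:**
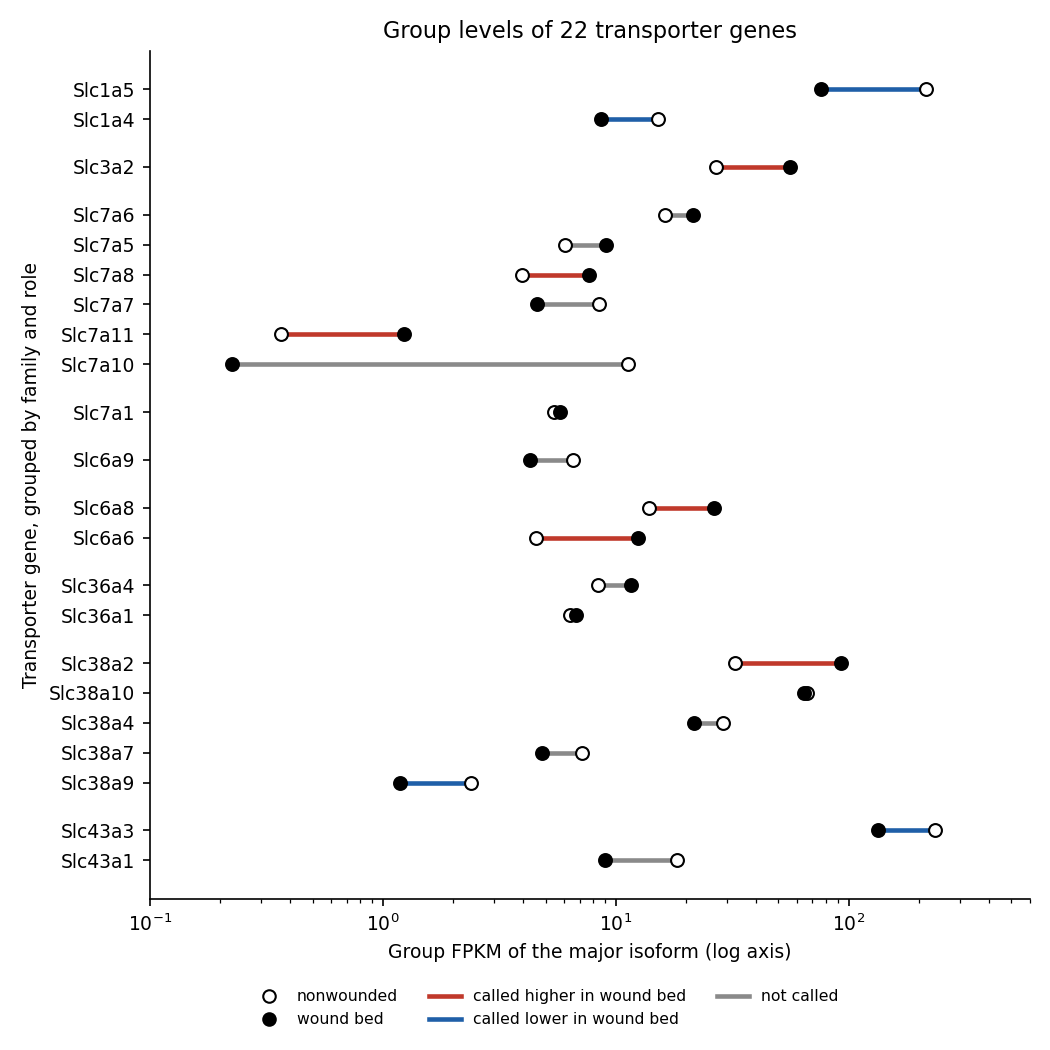
Group FPKM of the major isoform (horizontal log axis) of 22 transporter genes described in the text (rows, by family and role), open circles for nonwounded skin and filled circles for the wound bed, joined by a line that is red for a call higher, blue for a call lower and grey for no call. Slc38a2 runs from 32.4 to 92.7 and Slc1a5 from 215 to 75.9, and the line of Slc7a10 is long but grey.

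Among the tested transporters that were not called, 13 isoforms leaned toward the wound bed and 18 toward nonwounded skin. Of these 31, only those of Slc7a10, Slc7a2 and Slc6a15 had an unadjusted p under 0.05 in the authors' deposited table. Uncalled genes with a tested isoform that are not described in the paragraphs above were at low levels. Among them were Slc38a6 at 3.23 in the wound bed against 4.20 and Slc7a4 at 0.733 against 0.719. Slc6a12, the gene of a betaine and GABA carrier, stood at 0.431 against 1.09 and Slc36a2, of a proline and glycine carrier, at 0.361 against 0.706. Slc6a15, the gene of a branched-chain amino acid and proline carrier, stood at 0.0359 in the wound bed against 1.09 in nonwounded skin (adjusted p of 0.125). In the whole set of 95, the table gives 0 for 17 isoforms in the wound bed and for 6 of these in both groups.

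The 28 member genes without a tested isoform include carriers best known from brain, kidney and gut. Of the carriers of brain, Slc1a2, the gene of the main glutamate transporter of astrocytes, stood at 0.0561 in the wound bed against 0.543 for its major isoform, and the serotonin transporter gene Slc6a4 at 0.148 against 0.510. Slc6a3, the dopamine transporter gene, was listed at 0 in both groups, as were Slc6a5, of a glycine carrier, and Slc7a12. Of the carriers of kidney and gut, Slc7a9, the light chain partner of the Slc3a1 product, was listed at 0 against 0.00631 and Slc6a19, of a neutral amino acid carrier, stood at 0.0545 against 0.231. The highest single isoform of this set was that of Slc38a1, which encodes SNAT1, a close relative of SNAT2, at 0.504 against 0.692. The isoforms of Slc38a1 summed to 0.762 against 0.772, and those of Slc6a17 to 0.538 against 0.889. The table gives no test for any isoform of these genes, so no direction is drawn from them.

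Several genes had isoforms that leaned in opposite directions, although none had calls in both. In Slc43a1 the isoform NM_024497 stood at 9.0 in the wound bed against 18.3 in nonwounded skin, while NM_001081349 stood at 7.59 and 6.90. Another, NM_001083809, stood at 0.00319 and 3.52, and was not called either (adjusted p of 0.570). In Slc38a10 the isoform NM_001164799 stood at 64.1 and 66.3 and NM_001164800 at 37.5 and 31.8. In Slc6a8 a minor isoform, NM_001142810, was listed at 0.000641 in the wound bed against 1.58 in nonwounded skin without a call, beside the called rise of the main one. How reads shared by isoforms were assigned could affect such splits, which was not tested.

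**Figure D4:**
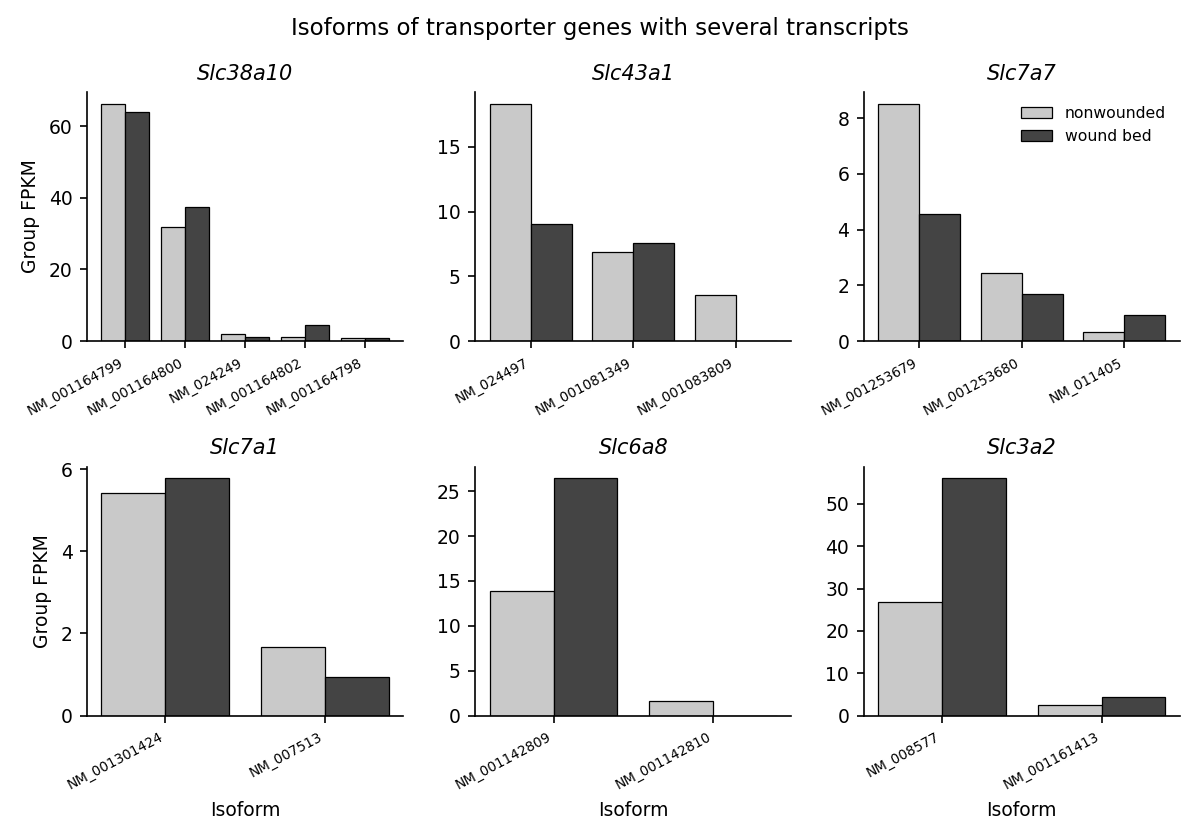
Group FPKM (vertical axis, from 0) of isoforms that reach 0.9 in either group, for 6 transporter genes with several transcripts, light bars for nonwounded skin and dark bars for the wound bed. The main isoforms of Slc3a2 (56.0 against 27.0) and Slc6a8 (26.4 against 13.9) are higher in the wound bed, and in Slc43a1 the isoforms at 18.3 and 6.90 in nonwounded skin lean opposite ways.

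Among the members were 11 pairs of neighbours less than 500 kb apart, and in none of them were both genes called. Most of these pairs hold a gene without a tested isoform, so both genes could not have been called there. No conclusion about neighbours is drawn from this count. On chromosome 15, Slc38a2 lies 44.5 kb from Slc38a1, which was not tested (its isoforms reached 0.692 at most), and 295 kb from Slc38a4, which was not called. On chromosome 2, Slc43a1 and Slc43a3 lie 73.1 kb apart and both stood lower in the wound bed, with a call for Slc43a3 only. On chromosome 14, Slc7a7 and Slc7a8 lie 305 kb apart, with Slc7a7 lower without a call and Slc7a8 called higher.

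Other genes of amino acid handling were read beside the transporters, from lists fixed by name, counting tested genes whose major isoform reached an FPKM of 1 in either group. Of 14 such amino acid carriers of other families, 1 was called higher (7.14%, against 7.39% of all such genes) and 0 lower (8.70% of all), with a median log2 fold change of -0.25, so that the share higher was near the background. The called gene was Slc15a3, which encodes a lysosomal histidine and peptide transporter of immune cells, at 8.85 in the wound bed against 0.389 in nonwounded skin (adjusted p of 0.0268). The macrophage markers given above were higher in the same column, and their part in it was not tested. The carriers of mitochondria in this list, such as Slc25a12 (log2 fold change -0.02) and Slc25a22 (-0.31), showed no call.

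Of 30 such genes of amino acid sensing by mTORC1, 4 were called higher (13.3%, against 7.39% of all) and 1 lower (3.33%, against 8.70%), with a median of -0.09. Sesn2, which encodes a leucine-binding inhibitor of mTORC1 signalling, stood at 7.18 in the wound bed against 1.18 in nonwounded skin (log2 fold change 2.60, adjusted p of 0.00239). Depdc5, of the GATOR1 complex that holds mTORC1 in check, rose by 1.97 (1.38 for its isoform sum) and Fnip2, a partner of folliculin, by 1.67. Sesn3 also rose, by 1.12, whereas Sesn1, of the same sestrin family, fell by 2.80 (-2.21 for its isoform sum). The kinase gene Mtor stood at 2.99 and 3.54 without a call.

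In the amino acid response list, 6 of 16 such genes were called higher (37.5%, against 7.39% of all) and 1 lower (6.25%, against 8.70%), with a median of 0.04. Atf4, whose product drives the response, stood at 271 in the wound bed against 154 in nonwounded skin (log2 fold change 0.82, adjusted p of 0.0157). Atf3 and Cebpb, genes of partner factors that also answer to many other stimuli, rose by 3.65 and 3.13, and Ppp1r15a, a feedback gene, by 2.63. The 1 call lower was the Atf5 isoform NR_033136, which fell by 3.74, from 93.5 in nonwounded skin to 6.98 in the wound bed. All isoforms of Atf5 summed to 122 and 69.3 (-0.81), so its other isoforms together stood higher in the wound bed. The call lower thus holds for that isoform only. Asns, counted with the enzymes below, encodes asparagine synthetase and is a common target of ATF4. It stood at 12.9 and 12.8 without a call, and Trib3, another target gene, at 0.636 and 2.0 without a call. Ddit3, of the response list, was called higher, at 38.5 in the wound bed against 14.2 in nonwounded skin (log2 fold change 1.44, adjusted p of 0.0239).

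Of 8 such glutathione genes, 3 were called higher (37.5%, against 7.39% of all) and 0 lower (8.70% of all), with a median of 0.44. Gclc, which encodes the catalytic subunit of glutathione synthesis and lies downstream of the cystine brought in by xCT, stood at 9.59 and 3.16 (log2 fold change 1.60, adjusted p of 0.00368). Gsr, the glutathione reductase gene, rose by 1.38 and Gpx1, a glutathione peroxidase gene, by 1.15. Gclm, of the modifier subunit, stood at 7.18 and 6.75 without a call.

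Of 24 such amino acid enzyme genes, 2 were called higher (8.33%, against 7.39% of all) and 1 lower (4.17%, against 8.70%), with a median of 0.18. The share higher was near the background and the share lower was under it, so the genes named next are single calls and not a pattern of the list. Got1, which encodes the cytosolic aspartate aminotransferase, stood at 28.7 in the wound bed against 7.83 in nonwounded skin (log2 fold change 1.87, adjusted p of 0.000882). Odc1, the gene of ornithine decarboxylase in polyamine synthesis, rose by 1.44. Pycr1, of proline synthesis, fell by 1.13 (adjusted p of 0.00819). Glul, the gene of glutamine synthetase, stood at 179 against 131 without a call.

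**Figure D5:**
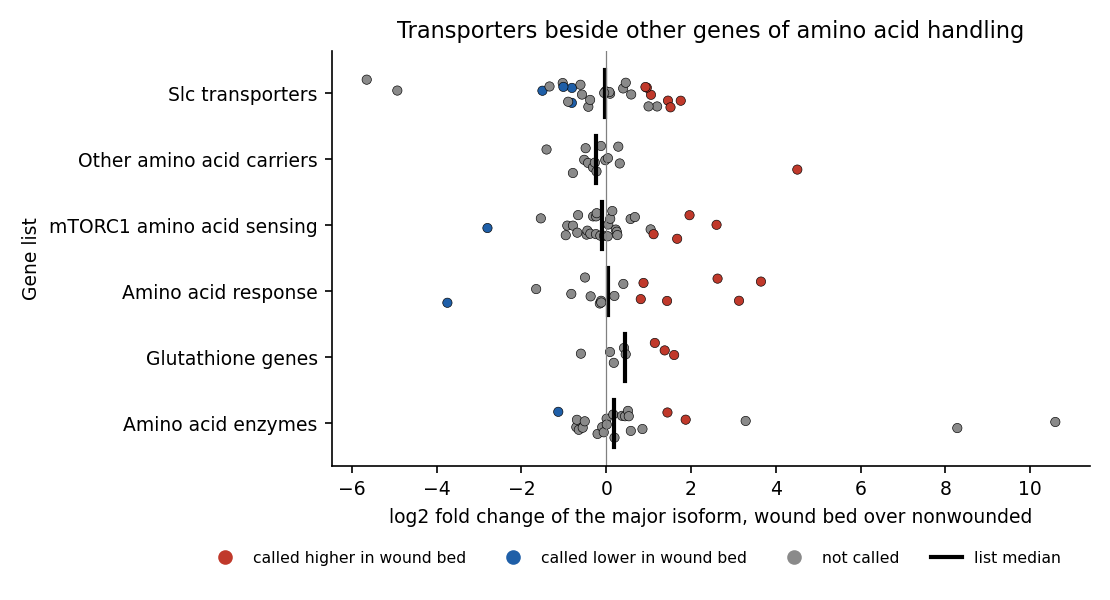
The horizontal axis gives the log2 fold change, wound bed over nonwounded, of the major isoform of each tested gene with an FPKM of at least 1, for the transporters and 5 other gene lists (rows, with points spread vertically for view), red for a call higher, blue for a call lower and grey for no call, with a black bar at the median. The medians run from -0.25 for the other amino acid carriers to 0.44 for the glutathione genes, and that of the transporters is -0.03.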

How the data were processed

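The submitters' processing notes name TopHat2 2.0.2, Cuffdiff 2.0.2 and the build mm9. The authors deposited 1 FPKM per isoform and group, over 6 nonwounded and 2 wound bed samples, and 1 unadjusted p-value per isoform, per the file headers. No count test or test across samples could be run on these values, and 0 columns hold single samples. Here the deposited p-values of the 17775 tested isoforms were adjusted by Benjamini-Hochberg over the whole table, which gave the deposited yes or no for all 34535 isoforms, with 0.000882 the smallest value reached. The log2 fold change is wound bed over nonwounded FPKM without a pseudocount, computed from the FPKM. Of the symbols, 56 isoforms carried dates and were restored through RefSeq.

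Table starts were counted from 0 and are printed from 1. Of the 59 genes, 54 had a start or end within 100 bases of the RefSeq GRCm38.p6 position, so the named build is uncertain. Named were genes with a call, with an FPKM of at least 5, or with isoforms of opposite sign, 22 of which are given here. Some genes that these rules name are not reported here, although they stay in the counts. From each other list, up to 3 called genes per direction were named, plus Atf4, Asns, Sesn2, Gclm and Glul. Other genes given values in the text, such as Slc1a3, Slc3a1, Slc6a15, Slc7a2, Slc38a1, Slc43a2 and the other untested or low members, Arg1, Nos2, Sesn3, Mtor, Trib3, Ddit3, Tek, Slc25a12 and Slc25a22, were chosen after their values were seen. Members and lists were chosen with earlier results of these data known. Protein sequences were not used here. The call steps were tested on simulated data. Python 3.11.15, numpy 2.4.6, pandas 2.3.3, scipy 1.17.1 and matplotlib 3.10.9 were used.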

Additional observations from a re-analysis of the deposited data

How the results depend on the processing

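The count of 6 transporter isoforms called higher ran from 4 to 7 over 6 other call rules, and the count of 5 called lower from 2 to 6. At an adjusted p under 0.01, 2 of the 42 tested were lower and 4 higher, where 4.63% and 3.61% of all tested isoforms were. The count lower was then near the background. When a log2 change of 1 or more was also required, 3 were lower and 4 higher, where 6.11% and 4.74% of all were. With an FPKM of at least 5, 3 were lower and 5 higher, where 4.86% and 5.09% of all were. The calls of Slc38a2, Slc3a2 and Slc6a6 higher and of Slc1a5 lower held under all 6 rules. At an adjusted p under 0.1, Slc7a2 and Slc7a10 were added. The median of -0.03 became 0.0140 with an FPKM of at least 5 and 0.0783 when centred on the median of -0.11 over 12524 isoforms. No called transporter changed sign with isoform sums, a pseudocount of 1 or centring, and of the others Slc7a1 and Slc38a10 did. Counts in the other lists, examined under the same rules after the data were seen, moved by over 1.5 times at an adjusted p under 0.01 (amino acid response, 3 higher; other carriers, 0 higher) and under 0.1 (2 lower in mTORC1 sensing, enzymes and amino acid response). No paired analysis was possible because the table holds 1 value per group, and leaving out replicates was not run for the same reason. The unknown depth limits what can be said of low genes such as Slc7a11 and Slc38a9.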
